A study of Schizosaccharomyces pombe with 16 samples.

Results

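The transcriptome of Wilmar-P was profiled by RNA-seq, Wilmar-P being the *Schizosaccharomyces pombe* isolate used for bioethanol production, on molasses and in glucose. Members were taken from the labels as the 2 Wilmar-P molasses libraries and the 2 Wilmar-P glucose libraries, which make 4 of the 16 libraries of the series. Wilmar-P carries the *h90* genotype, which gives a homothallic strain whose cells switch mating type and can mate within a culture. Glucose cells grew at 32 °C for 4 h in YES (yeast extract with supplements) with 3% glucose, were washed in water and grew for a further 4 h in fresh medium of the same kind. Molasses cells grew for 4 h in a medium of Wilmar sugarcane molasses with ammonium sulfate and potassium dihydrogen phosphate, made acidic with sulphuric acid. The media therefore differ in sugar, nitrogen, sulphate, phosphate and pH together, and the cultures differ in the wash, and the parts these play cannot be told apart. For reference, Wilmar-P cells from the glucose-starved group, which were shifted for 4 h to YES with 3% glycerol and no glucose, are given in places (2 libraries). Reads were counted on the laboratory reference genome, and all groups compared here are of 1 isolate.

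Fission yeast ferments glucose, fructose and, after invertase splits it, sucrose, and represses genes for other carbon sources while glucose lasts. Sugar enters through the Ght hexose transporters and passes through glycolysis to pyruvate, which pyruvate decarboxylase and alcohol dehydrogenase turn into ethanol. Poor nitrogen supply is known to switch on *ste11*, which encodes the HMG-box transcription factor that drives mating and meiosis, while good nitrogen sources and the cAMP pathway hold it down. Molasses is the concentrated syrup left after sugar crystallisation and holds sucrose, glucose and fructose with salts, phenolic compounds and other by-products.

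Counts per library without rRNA ran from 13796600 to 17186975 over the 4 libraries, and a count of 3, taken as the floor of detection, was at most 0.217 CPM before scaling, CPM being counts scaled to a common library total. rRNA genes took 1.07% and 0.445% of counts in glucose and 1.96% and 9.77% on molasses, and were left out of all totals. Glucose replicate 1 is the single unstranded library of the 4, and long non-coding RNAs took 8.33% of its counts against 1.35% in glucose replicate 2 and 1.19% and 1.14% on molasses. In that library reads of a gene and of a neighbour on the opposite strand cannot be told apart. The glucose replicates differed by over 2-fold at 496 of the 5073 protein-coding genes tested and the molasses replicates at 20, so most of the spread sits in glucose. A Wilmar-A glucose library that enters the fit, replicate 1, is labelled as stranded but had a long non-coding share of 8.65%, in the range of the labelled unstranded libraries. The labels do not say that the replicates are separate cultures, so the spread between replicates, on which p-values rest, may be technical. In the fit used below this spread is estimated over all 16 libraries of 8 groups with a term for strandedness, not from these 4 libraries alone. In bulk RNA fewer cells of a kind and less RNA per cell cannot be told apart.

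**Figure D1:**
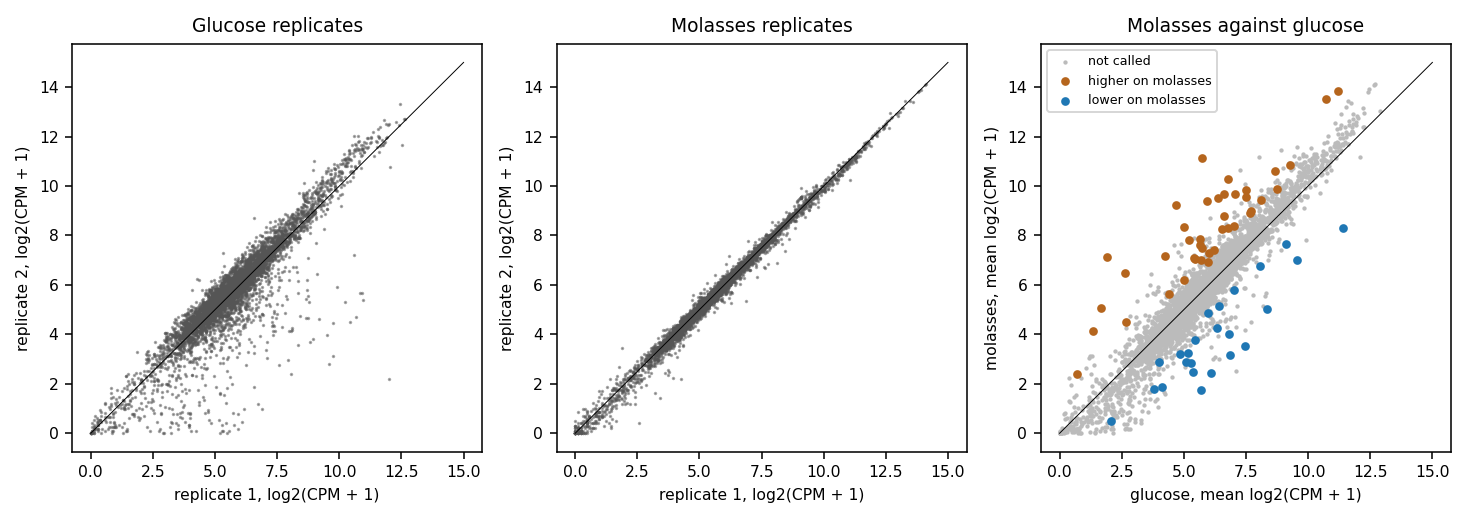
Expression of the 5073 protein-coding genes tested in Wilmar-P, as log2(CPM + 1), in replicate 2 against replicate 1 for glucose and for molasses, and as means of molasses against glucose. Lines mark equality, the 41 genes called higher on molasses are brown and the 24 called lower are blue, and the glucose replicates scatter more widely than the molasses replicates.

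On molasses, 41 protein-coding genes were higher and 24 were lower than in glucose, which is 0.808% and 0.473% of the 5073 tested and 1.28% together. Differential expression was called at an adjusted p below 0.05 and an absolute log2 fold change above 1, in edgeR's quasi-likelihood test with Benjamini-Hochberg adjustment. The median log2 fold change over all coding genes was 0.03, and 637 genes had an unadjusted p below 0.05. Both molasses libraries lay above both glucose libraries at 33.8% of coding genes and below them at 23.8%, so groups that do not overlap are common here. The counts depend on the model. With DESeq2 in place of edgeR 110 rose and 38 fell. These and the 637 above are the counts over all 5073 coding genes to set beside the list counts below. With the Wilmar-A library above coded as unstranded 109 rose and 39 fell. A fit of the 4 libraries alone with no strandedness term gave 0 and 2, with 1083 genes at an unadjusted p below 0.05. With the Wilmar-A libraries left out of the fit 34 were higher and 22 lower, and 51 of the 65 calls were kept. Without glucose replicate 1, when all libraries of the comparison are stranded, 30 were higher and 17 lower. Without glucose replicate 2 these counts were 5 and 11, and without molasses replicate 1 or 2 they were 11 and 10 or 11 and 9. Of the 65 called genes, 29 overlap an annotated gene on the opposite strand. The share over all coding genes is not given, so this count and those like it below cannot be read as high or low. Fold changes below are fitted values that carry the strandedness term, so they can differ from the ratio of the CPM given with them. The SE given with a fold change is its absolute value divided by the square root of the test's F value. It restates the test and does not measure the spread between the replicates of these groups.

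Calls that held whichever of the 4 libraries was left out numbered 9. They were *SPAPB24D3.07c*, *SPBC23G7.10c* and *yhb1*, which rose, and *byr1*, *SPAC1039.02*, *ptr2*, *pho842*, *sul2* and *imt2*, which fell. The first group holds an uncharacterized protein, a flavin oxidoreductase and a nitric oxide dioxygenase. The second holds a mating kinase, a phosphatase, a mannosyltransferase and transporters of peptides, phosphate and sulfate.

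**Figure D2:**
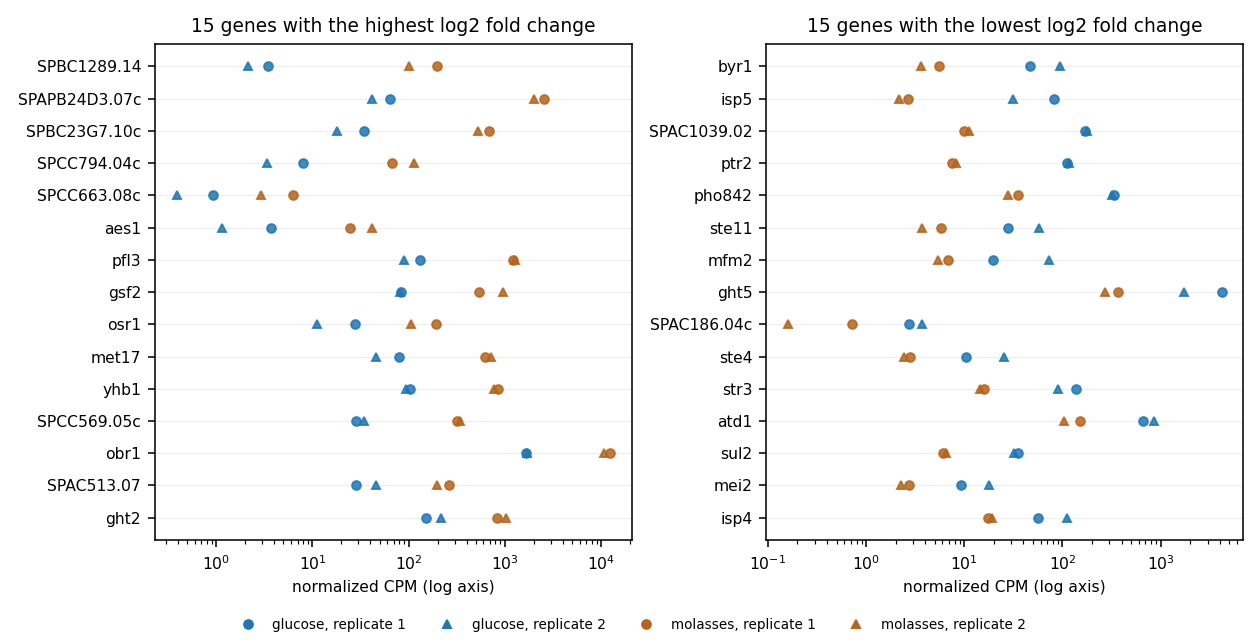
Normalized CPM on a log axis in each of the 4 Wilmar-P libraries for the 15 protein-coding genes with the highest and the 15 with the lowest log2 fold change among called genes. Blue marks glucose, brown molasses, circles replicate 1 and triangles replicate 2, and the groups do not overlap in any of these genes, as the rule for naming them required.

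Among the hexose transporters *ght5* fell and *ght2* rose. *ght5*, which encodes the high-affinity glucose transporter, had 4167 and 1728 CPM in glucose replicates 1 and 2 and 366 and 273 CPM on molasses (log2 fold change -3.01 ± 0.52 SE, adjusted p = 0.019). Glucose replicate 1 held the higher of the glucose levels, and both molasses libraries were well below either. *ght2*, a glucose and fructose symporter, went the other way, with 151 and 218 CPM in glucose and 832 and 1028 CPM on molasses (log2 fold change 2.16 ± 0.45 SE, adjusted p = 0.048). Of the 8 transporters of the list, these were the only members called. *ght8* had 1079 and 583 CPM in glucose and 947 and 789 CPM on molasses and its libraries overlapped. As mean CPM per kilobase of gene, the order of the 3 most abundant transporters was *ght5* (1329), *ght8* (197) and *ght2* (82.3) in glucose and *ght2* (414), *ght8* (206) and *ght5* (144) on molasses. *ght1*, *ght3* and *ght6* had both molasses libraries below both glucose libraries without passing the test (adjusted p from 0.4 to 0.48), and *ght7* had no count in any of the 4 libraries. The whole list took 0.769% and 0.302% of coding CPM in glucose and 0.202% and 0.196% on molasses. About 30% of *ght5* is repeated elsewhere in the genome (29.6% of its 50-base stretches), so its reads can be shared with relatives.

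Invertase, encoded by *inv1*, splits the sucrose that molasses holds. It had 86.4 and 12.04 CPM in the glucose libraries and 82.0 and 70.7 CPM on molasses, so glucose replicate 1 alone was as high as molasses and no difference was called (adjusted p = 0.84). In glucose-starved medium it had 4253 and 3543 CPM, and molasses was lower than that by a fitted log2 fold change of -5.67 ± 1.08 SE (adjusted p = 0.0018). The maltase gene *agl1* showed 22.4 and 9.60 CPM in glucose, 50.7 and 56.4 CPM on molasses and 535 and 359 CPM in starved medium. Of the 6 genes for disaccharide uptake and splitting none passed edgeR's test against glucose, 0 had an unadjusted p below 0.05 and DESeq2 called 0 higher and 0 lower. *fbp1*, which encodes the gluconeogenic enzyme fructose-1,6-bisphosphatase and is a classic glucose-repressed gene, had 20.7 and 5.47 CPM in glucose, 17.0 and 9.22 CPM on molasses and 753 and 1051 CPM in starved medium. The glycerol dehydrogenase gene *gld1* gave 15.9 and 4.12, 16.5 and 12.4 and 1002 and 416 CPM in the same order. For both genes the molasses values overlapped the glucose values, but the glucose replicates lay so far apart that no equality can be read from this. Both genes were lower on molasses than in starved medium (log2 fold changes against starved medium of -6.10 and -5.61, adjusted p = 2.1e-04 and 1.7e-04 in edgeR's test).

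Glycolysis took a larger share of the transcriptome on molasses. Its 13 listed genes held 3.86% and 4.53% of coding CPM in glucose, 7.44% and 7.43% on molasses, and 2.28% and 2.27% in starved medium. The molasses replicates were nearly equal and lay above both glucose replicates. By the gene-level test 1 member was higher and none was lower, and DESeq2 called 3 higher (110 of all 5073 coding genes). The edgeR call was *tdh1*, a gene of glyceraldehyde-3-phosphate dehydrogenase, with 2056 and 2679 CPM in glucose and 14482 and 14894 CPM on molasses (log2 fold change 2.099 ± 0.42 SE, adjusted p = 0.04). The other gene of that enzyme, *gpd3*, had 246 and 271 CPM in glucose and 2384 and 2279 CPM on molasses, the widest ratio of the list, but did not pass (log2 fold change 2.68 ± 0.58 SE, adjusted p = 0.059). Fitted log2 fold changes of 1.44 for enolase (*eno101*), 1.17 for phosphoglycerate kinase (*pgk1*) and 1.03 for aldolase (*fba1*) did not pass either, with adjusted p from 0.16 to 0.33. *gpm1*, phosphoglycerate mutase, overlapped between the groups, at 5575 and 10207 CPM in glucose and 8533 and 8166 CPM on molasses. Over the list, 10 of 13 genes had both molasses libraries above both glucose libraries, beside 33.8% of all coding genes. The list's median log2 fold change was 0.81 against 0.03 for all coding genes. In CPM per kilobase of gene, *fba1* ranked 2 and *tdh1* 6 among coding genes on molasses, and *fba1* ranked 10 in glucose.

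Downstream of glycolysis, *pdc101*, which encodes the main pyruvate decarboxylase, had 3428 and 3261 CPM in glucose and 9976 and 11129 CPM on molasses, a difference beyond the replicates that missed the threshold (log2 fold change 1.56 ± 0.36 SE, adjusted p = 0.078). In starved medium it had 236 and 168 CPM, and molasses was higher by a log2 fold change of 5.71 (adjusted p = 5.1e-06). *adh1*, the fermentative alcohol dehydrogenase, showed 4066 and 5762 CPM in glucose and 8208 and 7852 CPM on molasses (adjusted p = 0.75). Minor alcohol dehydrogenase genes, *adh4* (117 and 80.2 CPM in glucose and 242 and 371 CPM on molasses) and *adh8* (7.58 and 7.73 CPM in glucose and 41.6 and 39.0 CPM on molasses), were higher on molasses than both glucose libraries without passing (adjusted p = 0.18 and 0.3). *atd1*, an aldehyde dehydrogenase that oxidises acetaldehyde to acetate, was the only called member of the 13-gene list of ethanol and acetate metabolism and fell, from 656 and 851 CPM to 152 and 104.6 CPM (log2 fold change -2.65 ± 0.30 SE, adjusted p = 0.0018). It was highest in starved medium, at 2608 and 2745 CPM. Of the 4 calls for *ght5*, *ght2*, *tdh1* and *atd1*, 3, 1, 1 and 1 remained without glucose replicate 1, glucose replicate 2, molasses replicate 1 and molasses replicate 2 in turn, with adjusted p of up to 0.66 and no change of direction.

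**Figure D3:**
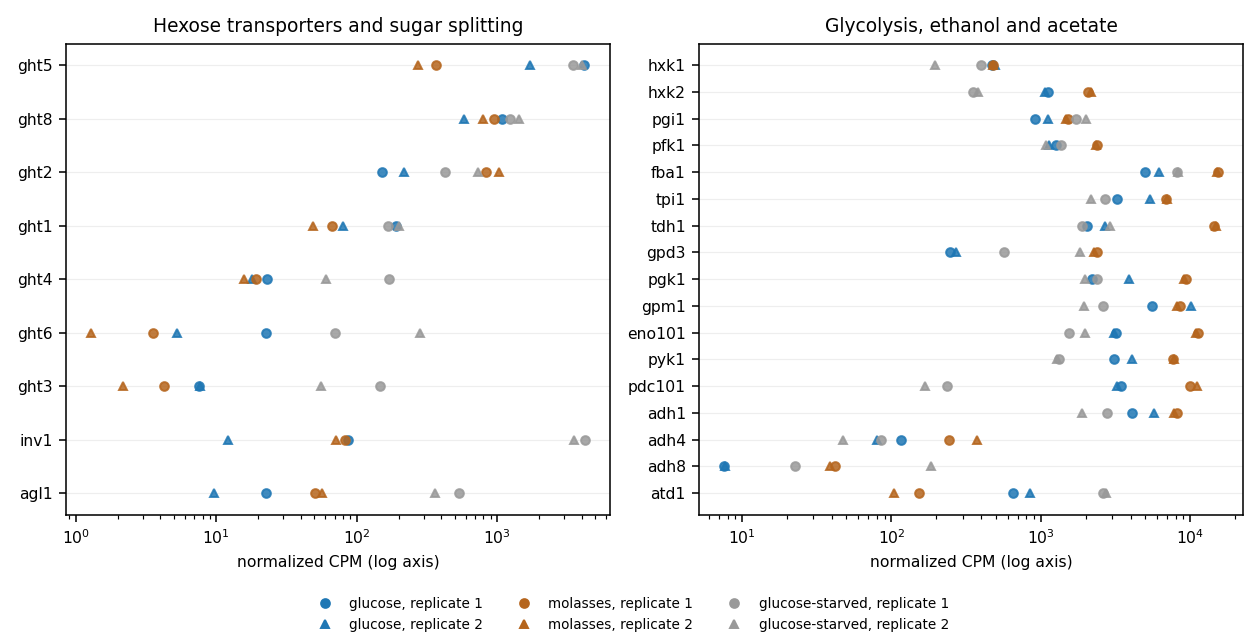
Normalized CPM on a log axis for hexose transporters, sugar-splitting enzymes and genes of glycolysis, ethanol and acetate in each Wilmar-P library. Blue marks glucose, brown molasses and grey glucose-starved medium, with circles for replicate 1 and triangles for replicate 2. *ght5* and *atd1* lie lower on molasses and *ght2* and *tdh1* higher, while *inv1* and *agl1* are highest in starved medium.

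Mating and meiotic entry was the list with the most calls, and all were lower on molasses. Of 25 genes tested, 9 fell and none rose, and 18 had both molasses libraries below both glucose libraries, against 0.473% and 23.8% of all coding genes. The list's median log2 fold change was -1.35. *ste11*, the transcription factor at the head of the pathway, had 28.2 and 57.3 CPM in glucose and 5.73 and 3.69 CPM on molasses (log2 fold change -3.32 ± 0.37 SE, adjusted p = 0.0018). The pheromone MAP kinase cascade fell at several steps. *byr1*, the MAP kinase kinase, had 47.0 and 94.5 CPM in glucose and 5.49 and 3.61 CPM on molasses (log2 fold change -4.07 ± 0.41 SE, adjusted p = 0.0016), the lowest fold change of all named genes. *spk1*, the MAP kinase it activates, had 27.8 and 27.6 CPM in glucose and 8.15 and 8.26 CPM on molasses (log2 fold change -2.05 ± 0.32 SE, adjusted p = 0.014). *ste4*, the adaptor of the upstream kinase Byr2, had 10.48 and 25.2 CPM in glucose and 2.82 and 2.40 CPM on molasses (log2 fold change -2.81 ± 0.50 SE, adjusted p = 0.023), whereas *byr2* itself showed 17.6 and 21.4 CPM in glucose and 20.6 and 19.96 CPM on molasses and its libraries overlapped.

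A pheromone gene, a pheromone receptor gene and a G-protein subunit gene were also called lower. *mfm2*, an M-factor pheromone gene, had 19.6 and 72.8 CPM in glucose and 6.78 and 5.45 CPM on molasses (log2 fold change -3.21 ± 0.50 SE, adjusted p = 0.014). *map3*, the M-factor receptor, had 52.4 and 34.3 CPM in glucose and 13.8 and 11.5 CPM on molasses (log2 fold change -1.71 ± 0.32 SE, adjusted p = 0.031), and *gpa1*, the G-protein alpha subunit behind the receptors, 57.6 and 124 CPM in glucose and 34.8 and 34.9 CPM on molasses (log2 fold change -1.60 ± 0.33 SE, adjusted p = 0.045). *mei2*, the RNA-binding protein that commits cells to meiosis, had 9.31 and 17.8 CPM in glucose and 2.74 and 2.25 CPM on molasses (log2 fold change -2.46 ± 0.43 SE, adjusted p = 0.019). *ste7*, an arrestin-family adaptor needed for conjugation, had 12.5 and 17.5 CPM in glucose and 6.05 and 6.66 CPM on molasses (log2 fold change -1.35 ± 0.27 SE, adjusted p = 0.038). In each of these 9 genes both molasses libraries were below both glucose libraries, and in 7 of them the stranded glucose replicate 2 was higher than the unstranded replicate 1. The proteases *sxa1* and *sxa2*, which degrade pheromone, had higher values on molasses than in glucose without passing. Of the 9 calls, 5 are of genes that overlap an opposite-strand gene. After removal of glucose replicate 1, glucose replicate 2, molasses replicate 1 and molasses replicate 2 in turn, 7, 2, 2 and 2 of the 9 calls were left, so the count rests on glucose replicate 2 and on both molasses libraries (adjusted p up to 0.76), with no gene changing direction. The same 9 genes fell by DESeq2, and 7 did with no strandedness term, the exceptions being *mfm2* and *gpa1* (adjusted p = 0.052 and 0.12).

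Promoters of the genes that fell were searched for the letters TTCTTTGTT, the core of the TR box that Ste11 binds, on both strands in the 300 bases before the RefSeq gene start (ASM294v3). This motif was added after the values were seen. It occurred in 5 of the 9 mating genes that fell, in 10 of the 25 listed and in 2.0% of all 5103 coding promoters. The letters CCCCTC, the stress response element bound by the zinc finger factor Rst2, occurred in 3 of the same 9 and in 1.92% of all promoters. Promoters with a TR box core are printed for 4 of these genes, 5′ to 3′, because they belong to the list with the most calls, with both motifs, or their reverse complements, in capitals. They are the 200 bases before the start of *ste11* (chrII:3983176-3983375 on the plus strand), *mei2* (chrI:4515026-4515225 on the minus strand), *ste7* (chrI:453562-453761 on the minus strand) and *spk1* (chrI:3001519-3001718 on the minus strand), all in ASM294v3.
ste11: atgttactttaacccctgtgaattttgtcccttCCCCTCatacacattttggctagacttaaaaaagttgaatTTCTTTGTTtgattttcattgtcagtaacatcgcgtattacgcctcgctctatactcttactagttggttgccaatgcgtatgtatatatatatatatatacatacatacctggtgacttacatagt
mei2: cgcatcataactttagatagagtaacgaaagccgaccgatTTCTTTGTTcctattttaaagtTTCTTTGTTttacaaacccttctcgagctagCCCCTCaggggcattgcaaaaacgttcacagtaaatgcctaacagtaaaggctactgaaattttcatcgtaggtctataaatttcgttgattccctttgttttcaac
ste7: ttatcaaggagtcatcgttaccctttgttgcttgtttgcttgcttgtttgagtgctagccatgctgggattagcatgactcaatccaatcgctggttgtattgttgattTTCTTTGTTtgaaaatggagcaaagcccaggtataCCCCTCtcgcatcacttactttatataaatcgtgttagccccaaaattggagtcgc
spk1: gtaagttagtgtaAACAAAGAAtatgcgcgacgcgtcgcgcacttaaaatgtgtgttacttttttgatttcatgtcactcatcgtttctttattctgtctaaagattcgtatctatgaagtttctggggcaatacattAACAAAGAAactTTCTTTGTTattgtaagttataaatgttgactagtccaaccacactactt
A match is a string of letters and not a measured site. All promoter bases here and below are those of the laboratory reference genome. The promoters of Wilmar-P itself, which can differ, were not examined. In *ste11*, *mei2* and *ste7* a TR box core and a CCCCTC lie within the same 200 bases, and *spk1* holds 3 TR box cores, 2 of them on the opposite strand.

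Of 20 nitrogen genes tested, *ptr2*, *isp5* and *isp4* fell and *amt1* and *gln1* rose. *ptr2*, a di- and tripeptide transporter, had 112 and 118 CPM in glucose and 7.50 and 8.26 CPM on molasses (log2 fold change -3.80 ± 0.41 SE, adjusted p = 0.0016). *isp5*, an amino acid permease, had 81.2 and 31.6 CPM in glucose and 2.66 and 2.17 CPM on molasses (log2 fold change -3.95 ± 0.53 SE, adjusted p = 0.0055), and *isp4*, an oligopeptide transporter, 56.6 and 112 CPM in glucose and 17.4 and 19.2 CPM on molasses (log2 fold change -2.43 ± 0.27 SE, adjusted p = 0.0018). By contrast *amt1*, a plasma membrane ammonium transporter, had 44.5 and 62.3 CPM in glucose and 167 and 195 CPM on molasses (log2 fold change 1.65 ± 0.28 SE, adjusted p = 0.019). *gln1*, glutamine synthetase, which fixes ammonium onto glutamate, had 213 and 206 CPM in glucose and 442 and 577 CPM on molasses (log2 fold change 1.27 ± 0.21 SE, adjusted p = 0.019). In starved medium *gln1* had 39.9 and 34.4 CPM and *amt1* 29.2 and 25.5 CPM, and molasses was higher than that as well (adjusted p = 3.4e-06 and 3.7e-05 in edgeR's test). The glutamate dehydrogenase gene *gdh1*, at 581 and 607 CPM in glucose and 1912 and 1979.9 CPM on molasses, and the glutamate synthase gene *glt1*, at 355 and 317 CPM in glucose and 823 and 1049 CPM on molasses, lay well above glucose on molasses but did not pass (adjusted p = 0.09 and 0.075).

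The nitrogen list had a median log2 fold change of 0.25, and DESeq2 called 4 of its genes higher and 3 lower. Outside the list, and chosen after their values were seen, the dipeptidase gene *dug1* fell (490.5 and 619 CPM to 199 and 202 CPM, log2 fold change -1.51, adjusted p = 0.024) and the amino-acid permease gene *SPCPB1C11.02* rose from 5.43 and 5.34 CPM to 24.4 and 19.3 CPM (log2 fold change 1.66, adjusted p = 0.048). Removing the libraries one at a time in the order glucose 1, glucose 2, molasses 1, molasses 2 left 5, 2, 2 and 2 of these 7 calls, with adjusted p of up to 0.72 and every direction kept. The GATA-type letters AGATAA, read by factors such as Gaf1, occurred within 300 bases of the start in 11 of the 20 nitrogen promoters and in 25.6% of all. They are shown in capitals, on either strand, for *gln1*, which rose, and *ptr2*, which fell, since both directions occur with them (ASM294v3, chrI:1598065-1598314 on the minus strand and chrII:3408360-3408559 on the minus strand).
gln1: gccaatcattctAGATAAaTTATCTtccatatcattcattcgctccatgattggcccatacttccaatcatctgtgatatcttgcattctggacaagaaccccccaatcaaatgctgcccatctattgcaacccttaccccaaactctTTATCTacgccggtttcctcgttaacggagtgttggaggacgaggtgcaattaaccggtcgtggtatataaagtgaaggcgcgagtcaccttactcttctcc
ptr2: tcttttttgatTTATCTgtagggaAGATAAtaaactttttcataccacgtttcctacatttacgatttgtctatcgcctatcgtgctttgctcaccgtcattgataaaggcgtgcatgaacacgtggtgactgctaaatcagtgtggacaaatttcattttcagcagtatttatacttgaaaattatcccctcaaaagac
Both promoters hold a pair of matches close together and on opposite strands. The pair starts 231 and 238 bases before the start in *gln1* and 176 and 189 in *ptr2*. *gln1* holds another match nearer the start.

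**Figure D4:**
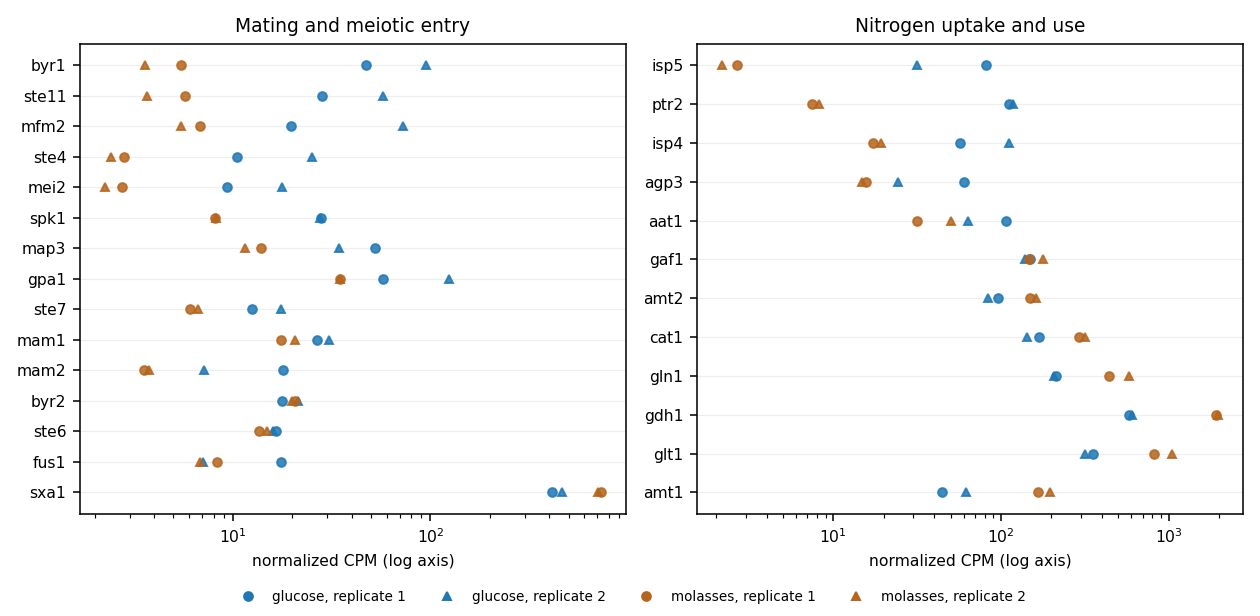
Normalized CPM on a log axis in each of the 4 Wilmar-P libraries for genes of mating and meiotic entry and of nitrogen uptake and use. Blue marks glucose, brown molasses, circles replicate 1 and triangles replicate 2. *byr1* to *ste7* and *isp5* to *isp4* are lower on molasses, while *gln1* and *amt1* are higher.

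Amino acid synthesis lists held no gene called by edgeR. DESeq2 called 4 of 41 higher and 0 lower, beside 110 and 38 of all 5073 coding genes. Both molasses libraries lay above both glucose libraries at 8 of 10 arginine genes, 7 of 9 leucine, valine and isoleucine genes, 5 of 7 lysine genes, 4 of 7 histidine genes and 5 of 8 aromatic genes, beside 33.8% of all coding genes. Their median log2 fold changes were 0.54, 0.72, 0.44, 0.47 and 0.44. An unadjusted p below 0.05 was seen at 13 of the 41 genes, beside 637 of all 5073 coding genes. The largest fold changes in the first pair of lists were those of *leu2*, of leucine synthesis, with 476 and 384 CPM in glucose and 1226 and 1209.7 CPM on molasses (adjusted p = 0.098), and *arg4*, of arginine synthesis, with 328 and 241 CPM in glucose and 711 and 849 CPM on molasses (adjusted p = 0.22).

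Sulphur, phosphate and iron genes each moved in both directions. *met17*, homocysteine synthase, which places sulphide into amino acids, rose from 79.98 and 45.7 CPM in glucose to 626 and 713 CPM on molasses (log2 fold change 3.36 ± 0.43 SE, adjusted p = 0.0037). The sulfate transporter gene *sul2* fell from 34.9 and 31.8 CPM to 6.13 and 6.58 CPM (log2 fold change -2.49 ± 0.28 SE, adjusted p = 0.0018), while its relative *sul1* had 78.9 and 42.6 CPM in glucose and 191 and 185 CPM on molasses (adjusted p = 0.28). In starved medium *sul2* was at its highest of the 3 media, with 169.7 and 247 CPM, and *met17* at its lowest, with 25.0 and 34.2 CPM. *sul2* is not in the list. Of the 15 sulphur genes, 1 was called and the median log2 fold change was 0.75. Both molasses libraries lay above both glucose libraries at 11 of the 15, beside 33.8% of all coding genes.

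The 3 genes annotated as inorganic phosphate transporters differed from each other. *pho84* rose from 188 and 177 CPM to 621 and 894 CPM (log2 fold change 2.0 ± 0.38 SE, adjusted p = 0.032) and *pho841* from 60.5 and 39.6 CPM to 245 and 222 CPM (log2 fold change 2.13 ± 0.34 SE, adjusted p = 0.015), whereas *pho842* fell from 335 and 320.1 CPM to 35.1 and 28.0 CPM (log2 fold change -3.36 ± 0.36 SE, adjusted p = 0.0016). *pho842* was highest in starved medium, at 644 and 1034 CPM. Little of these genes is repeated elsewhere in the genome (4.73% of *pho84*, 4.36% of *pho841* and 0% of *pho842*). *pho841* was chosen after its values were seen. Of the 10 genes of the phosphate list, *pho84* was the only call, and the median was -0.29.

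Iron uptake was lower on molasses where it was called. *str3*, a gene of iron transport and metabolism, fell from 136 and 89.5 CPM to 15.97 and 14.5 CPM (log2 fold change -2.66 ± 0.47 SE, adjusted p = 0.02), and *fio1*, the copper oxidase of the reductive iron uptake complex, from 89.5 and 189 CPM to 48.2 and 60.5 CPM (log2 fold change -1.67 ± 0.32 SE, adjusted p = 0.033). The *fio1* call was lost with no strandedness term (adjusted p = 0.16). The partner permease of Fio1, *fip1*, the ferric reductase *frp1* and the siderophore transporter *str1* had values in the same direction that did not pass, with log2 fold changes of -1.60, -2.18 and -1.94 and adjusted p of 0.21, 0.11 and 0.14. *pcl1*, which stores iron in the vacuole and is known to be repressed when iron is scarce, rose from 65.9 and 81.2 CPM to 168 and 172 CPM (log2 fold change 1.19 ± 0.20 SE, adjusted p = 0.018). *str3* was near the floor in starved medium, at 0.171 and 0.609 CPM, so molasses was intermediate between glucose and starved medium for this gene. Of 21 iron and haem genes 1 rose and 2 fell. Those that fell numbered 6 by DESeq2, 5 with the Wilmar-A library coded as unstranded and 1 with no strandedness term. Of 13 copper and zinc genes edgeR called none, 3 had an unadjusted p below 0.05 and DESeq2 called 0 higher and 1 lower. Of the 8 mineral calls in these paragraphs, 4, 2, 3 and 3 held with glucose replicate 1, glucose replicate 2, molasses replicate 1 and molasses replicate 2 left out (adjusted p up to 0.62, no reversal).

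A group of 11 genes that rose, among them quinone, flavin and aldo-keto reductases, was put together by product names after the values were seen. It is not complete, since *tdh1*, *sdh2*, *erg31* and *dfr1* also encode oxidoreductases and are described elsewhere, and its number is not a result. *obr1*, a quinone oxidoreductase, was among the most abundant mRNAs on molasses. It had 1652 and 1704 CPM in glucose and 12397 and 10818 CPM on molasses (log2 fold change 2.65 ± 0.42 SE, adjusted p = 0.014) and ranked 3 per kilobase on molasses against 96 in glucose. *yhb1*, which encodes the nitric oxide dioxygenase that detoxifies nitric oxide, rose from 103 and 93.96 CPM to 845 and 773 CPM (log2 fold change 3.19 ± 0.32 SE, adjusted p = 0.0016). *SPBC23G7.10c*, an NADH-dependent flavin oxidoreductase (chrII:2118146-2119536 in ASM294v2), rose from 34.2 and 17.97 CPM to 681 and 521 CPM (log2 fold change 4.46 ± 0.47 SE, adjusted p = 0.0016). The dehydrogenase gene *osr1* had 27.8 and 11.2 CPM in glucose and 192 and 105.8 CPM on molasses (log2 fold change 3.36 ± 0.44 SE, adjusted p = 0.0042). *SPAC513.07*, annotated in the flavonol reductase and cinnamoyl-CoA reductase family, had 28.5 and 46.2 CPM in glucose and 259.9 and 198 CPM on molasses (log2 fold change 2.38 ± 0.34 SE, adjusted p = 0.0083). *SPCC663.08c*, a short chain dehydrogenase, was low in all 4 libraries, with 20 and 6 counts, and had 78 and 36 counts on molasses (log2 fold change 4.15 ± 0.79 SE, adjusted p = 0.032). Without the strandedness term its fold change was 2.76 with an adjusted p of 0.24.

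A further 5 oxidoreductases rose by less. The aldo-keto reductase genes *SPAC977.14c*, *SPAC750.01* and *SPBC8E4.04* had log2 fold changes of 1.44, 1.78 and 1.91 (adjusted p = 0.02, 0.033 and 0.018), the FAD-binding *SPAC5H10.05c* 1.40 (adjusted p = 0.03) and the FMN reductase gene *SPCC4B3.06c* 2.0 (adjusted p = 0.014). About 30% of *SPAC977.14c* and *SPAC750.01* is repeated elsewhere (29.1% and 32.8%), so these 2 may share reads. With no strandedness term 7 of the 11 calls were kept, the others lost being *SPCC4B3.06c*, *SPBC8E4.04* and *SPAC5H10.05c* (adjusted p = 0.3, 0.064 and 0.067). Of the list of 18 oxidative defence genes *obr1* was the only call by edgeR. DESeq2 called 4 of the 18 higher, beside 110 of all 5073 coding genes. Catalase (*ctt1*) had 31.1 and 17.3 CPM in glucose and 221 and 172 CPM on molasses, the peroxiredoxin *tpx1* 610.0 and 917 CPM in glucose and 3125 and 2941 CPM on molasses, and the sulfiredoxin *srx1* 19.7 and 28.8 CPM in glucose and 85.8 and 77.9 CPM on molasses, none past the threshold (adjusted p = 0.18, 0.15 and 0.15). The superoxide dismutase gene *sod1* and the glutathione reductase gene *pgr1* overlapped between the groups. Without glucose replicate 1, glucose replicate 2, molasses replicate 1 or molasses replicate 2, 6, 3, 3 and 5 of the 11 oxidoreductase calls held, with adjusted p of up to 0.56 and unchanged directions.

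Several of the largest increases were in genes with little annotation. *SPBC1289.14*, an adducin-family protein, had the highest fold change of all, with 3.46 and 2.12 CPM in glucose and 196 and 101 CPM on molasses (log2 fold change 5.50 ± 0.86 SE, adjusted p = 0.014). It lies at chrII:4412072-4413599 in ASM294v2, the build of the deposited table, whose coordinates differ from those of ASM294v3. In starved medium it had 168 and 152 CPM, in the range of molasses (log2 fold change -0.11 ± 0.63 SE, adjusted p = 0.91). The uncharacterized *SPAPB24D3.07c* (chrI:2957839-2959192 in ASM294v2) rose from 64.1 and 41.3 CPM to 2537 and 2010.2 CPM (log2 fold change 5.08 ± 0.59 SE, adjusted p = 0.002) and was higher than in starved medium, where it had 106.5 and 169.9 CPM (adjusted p = 1.3e-04). *aes1*, of the phenazine biosynthesis family, had 3.69 and 1.16 CPM in glucose and 24.8 and 41.5 CPM on molasses (log2 fold change 4.11 ± 0.67 SE, adjusted p = 0.015). Among genes that fell, the phosphatase gene *SPAC1039.02* had the smallest adjusted p, with 169.7 and 176 CPM in glucose and 9.84 and 11.2 CPM on molasses (log2 fold change -3.94 ± 0.26 SE, adjusted p = 1.1e-04), and *SPAC186.04c* was low throughout, with 59 and 58 counts in glucose and 9 and 2 on molasses (log2 fold change -2.95 ± 0.55 SE, adjusted p = 0.028).

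Membrane transporters of other substrates also rose. *SPCC794.04c*, a transporter of unassigned substrate, had 7.91 and 3.35 CPM in glucose and 67.0 and 115 CPM on molasses (log2 fold change 4.24 ± 0.65 SE, adjusted p = 0.013), and *SPCC569.05c*, of the spermidine transporter family, had 28.2 and 34.3 CPM in glucose and 318 and 338 CPM on molasses (log2 fold change 3.071 ± 0.37 SE, adjusted p = 0.0023). *pmd1*, an ABC transporter that exports leptomycin, rose from 206 and 193 CPM to 477 and 481 CPM (log2 fold change 1.19 ± 0.24 SE, adjusted p = 0.041) and was the only call of the 12 drug efflux genes tested. The brefeldin A exporter *bfr1*, at 521 and 488 CPM in glucose and 1660.2 and 1746 CPM on molasses, and the caffeine resistance transporter *caf5*, at 35.9 and 47.9 CPM in glucose and 348 and 162 CPM on molasses, came close to the threshold (adjusted p = 0.063 and 0.065). With the Wilmar-A library treated as unstranded, 5 efflux genes rose, beside 109 of all 5073 coding genes, and with DESeq2 5, beside 110. Across the 8 calls of this paragraph and the one before, 6, 2, 5 and 4 were kept without glucose 1, glucose 2, molasses 1 and molasses 2 (adjusted p up to 0.66), all in the same direction.

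The letters TGACGT, the core of the site bound by the stress factor Atf1, were found within 300 bases of the start in 8 of the 41 genes that rose, in 0 of the 24 that fell and in 6.04% of all coding promoters. The heat shock letters GAANNTTC were in 3 of the genes that rose and in 11.3% of all. The promoters of 4 named genes with TGACGT are shown as the 160 bases before the start, with these letters or their reverse complement in capitals. They are *ght2* (chrII:3427000-3427159 on the plus strand), *SPAC513.07* (chrI:2921346-2921505 on the plus strand), *pho84* (chrII:4443941-4444100 on the plus strand) and *SPBC1289.14* (chrII:4412081-4412240 on the plus strand), in ASM294v3.
ght2: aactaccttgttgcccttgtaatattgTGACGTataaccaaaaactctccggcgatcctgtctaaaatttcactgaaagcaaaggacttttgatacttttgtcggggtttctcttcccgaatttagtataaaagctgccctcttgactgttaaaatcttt
SPAC513.07: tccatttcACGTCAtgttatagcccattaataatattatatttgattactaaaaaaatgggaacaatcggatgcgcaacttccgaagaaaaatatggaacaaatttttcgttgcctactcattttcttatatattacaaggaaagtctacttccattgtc
pho84: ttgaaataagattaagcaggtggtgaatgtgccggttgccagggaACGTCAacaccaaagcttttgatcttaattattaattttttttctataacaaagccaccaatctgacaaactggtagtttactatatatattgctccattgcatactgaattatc
SPBC1289.14: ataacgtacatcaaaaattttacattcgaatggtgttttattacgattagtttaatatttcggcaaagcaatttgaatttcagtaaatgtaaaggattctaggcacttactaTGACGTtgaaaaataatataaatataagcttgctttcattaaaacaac
The distance of the letters to the start ranges from 48 bases in *SPBC1289.14* to 152 in *SPAC513.07*, and TGACGT is on the strand of the gene in *ght2* and *SPBC1289.14* and on the other strand in *SPAC513.07* and *pho84*.

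The 20 listed genes of the Sty1-Atf1 stress pathway held no call against glucose, and most were lower than in starved medium. Outside this list, *obr1* of oxidative defence and the chaperone gene *hsp104* were called higher than in glucose. Of these 20 genes edgeR called none against glucose, 7 had an unadjusted p below 0.05 and DESeq2 called 3 higher and 0 lower. Over all 5073 coding genes the last 3 of these counts were 637, 110 and 38. Both molasses libraries lay above both glucose libraries at 13 of the 20, beside 33.8% of all coding genes. The median log2 fold change was 0.57. *rds1*, for example, had 195 and 155 CPM in glucose, 1293 and 912 CPM on molasses and 16610.2 and 6336 CPM in starved medium, and *hsp16*, a small heat shock protein gene, 18.1 and 11.9, 69.0 and 51.2 and 363 and 1299.5 CPM. Against starved medium 16 of the 20 were lower on molasses and 1, *srx1*, was higher. Over all coding genes that comparison called 859 higher (16.9%) and 849 lower (16.7%).

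Chaperones differed among themselves. *hsp104*, the disaggregase, had 32.7 and 12.4 CPM in glucose and 52.7 and 44.3 CPM on molasses (log2 fold change 1.74 ± 0.30 SE, adjusted p = 0.02), and *psi1*, a DnaJ-domain co-chaperone, 31.9 and 55.4 CPM in glucose and 142 and 129 CPM on molasses (log2 fold change 1.38 ± 0.28 SE, adjusted p = 0.044). These were 2 of 21 listed chaperones, the rest not passing. *hsp104* did not pass with no strandedness term (adjusted p = 0.27), and in starved medium it reached 152 and 167 CPM. The Hsp70 gene *ssa2* had 1522 and 4219 CPM in glucose and 8090.2 and 7279.5 CPM on molasses (adjusted p = 0.48), and *hsp90* overlapped between the groups.

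Respiration and ribosomes showed few calls. *sdh2*, the iron-sulphur subunit of succinate dehydrogenase, rose from 114 and 104.1 CPM to 304 and 334 CPM (log2 fold change 1.51 ± 0.28 SE, adjusted p = 0.026) and was the only call of 17 TCA cycle genes. In 14 of the 17 both molasses libraries lay above both glucose libraries, beside 33.8% of all coding genes. The aconitase gene *aco1*, with 295 and 257 CPM in glucose and 911 and 930.3 CPM on molasses, and the fumarase gene *fum1*, with 136 and 147 CPM in glucose and 478 and 430.1 CPM on molasses, did not pass. The list's median was 0.87 against glucose and -0.997 against starved medium. Of 30 respiratory chain and ATP synthase genes edgeR called none, 1 had an unadjusted p below 0.05 and DESeq2 called 0 higher and 0 lower, and the median was -0.17. Cytoplasmic ribosomal proteins held 21.7% and 28.7% of coding CPM in glucose and 26.5% and 25.6% on molasses, so by summed share molasses lay between the glucose replicates. Gene by gene, 83 of 141 had both molasses libraries above both glucose libraries and 1 had both below, beside 33.8% and 23.8% of all coding genes. Their median log2 fold change was 0.34. EdgeR called none of the 141. An unadjusted p below 0.05 was seen at 22 of them, beside 637 of all 5073 coding genes. DESeq2 called 4 of the 141 higher and 0 lower, beside 110 and 38 of all coding genes. Of 43 nucleolar and RNA polymerase I genes only *fib1*, fibrillarin, rose, from 429.5 and 433 CPM to 946 and 924 CPM (log2 fold change 1.17 ± 0.21 SE, adjusted p = 0.023). *snz1*, a vitamin B6 synthesis gene chosen after its values were seen, had 428 and 383 CPM in glucose and 1486 and 1607 CPM on molasses (log2 fold change 1.71, adjusted p = 0.019). Of the 5 calls for *hsp104*, *psi1*, *sdh2*, *fib1* and *snz1*, 2, 0, 0 and 0 held without glucose replicate 1, glucose replicate 2, molasses replicate 1 and molasses replicate 2 (adjusted p up to 0.55, no reversal). With the Wilmar-A libraries left out, 2 of these 5 calls held.

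Cell surface glycoproteins were among the genes that rose most. *pfl3*, a DIPSY-family flocculin, had 131 and 89.1 CPM in glucose and 1206 and 1276 CPM on molasses (log2 fold change 3.54 ± 0.41 SE, adjusted p = 0.002). *gsf2*, the flocculin that binds galactose residues and makes cells clump, had 83.3 and 82.3 CPM in glucose and 540.4 and 967 CPM on molasses (log2 fold change 3.43 ± 0.53 SE, adjusted p = 0.013), and *pfl5* 115.7 and 80.8 CPM in glucose and 446 and 446 CPM on molasses (log2 fold change 2.096 ± 0.41 SE, adjusted p = 0.035). These were 3 of the 17 flocculins, adhesins and their regulators tested, and the list's median was 0.36. DESeq2 called 5 of the 17 higher, beside 110 of all 5073 coding genes. *pfl8* had 22.5 and 31.8 CPM in glucose and 71.5 and 144 CPM on molasses (adjusted p = 0.11) and *gsf1* 50.05 and 42.6 CPM in glucose and 136 and 136 CPM on molasses (adjusted p = 0.073), while *pfl2* had 595 and 588 CPM in glucose and 672 and 756 CPM on molasses. *pfl7* had no count on molasses. Between 33.7% and 48.2% of *pfl3*, *gsf2* and *pfl5* is repeated elsewhere, so their reads may be shared with relatives of the family.

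Of 23 cell wall genes edgeR called none and DESeq2 called 0 higher and 0 lower. An unadjusted p below 0.05 was seen at 7 of the 23, beside 637 of all 5073 coding genes. Both molasses libraries lay above both glucose libraries at 15 of the 23, beside 33.8% of all coding genes. Membrane genes that changed, chosen after their values were seen except for *erg31*, included *fhn1*, of the eisosome, a furrow of the plasma membrane, which rose from 95.4 and 181 CPM to 784 and 877 CPM (log2 fold change 2.04, adjusted p = 0.011). *erg31*, a sterol desaturase, rose from 49.96 and 49.3 CPM to 166 and 231 CPM (log2 fold change 2.02 ± 0.24 SE, adjusted p = 0.0024), alone among 23 sterol and hypoxia genes, whereas its paralogue *erg32* had 139 and 176 CPM in glucose and 160.1 and 169.5 CPM on molasses and overlapped. *imt2*, a mannosyltransferase of sphingolipid synthesis, fell from 41.3 and 30.4 CPM to 9.20 and 7.78 CPM (log2 fold change -1.98, adjusted p = 0.0016). With each library left out in turn (glucose 1, glucose 2, molasses 1, molasses 2), 5, 1, 4 and 3 of the 6 calls for *pfl3*, *gsf2*, *pfl5*, *fhn1*, *erg31* and *imt2* held, with adjusted p of up to 0.64 and no reversal.

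**Figure D5:**
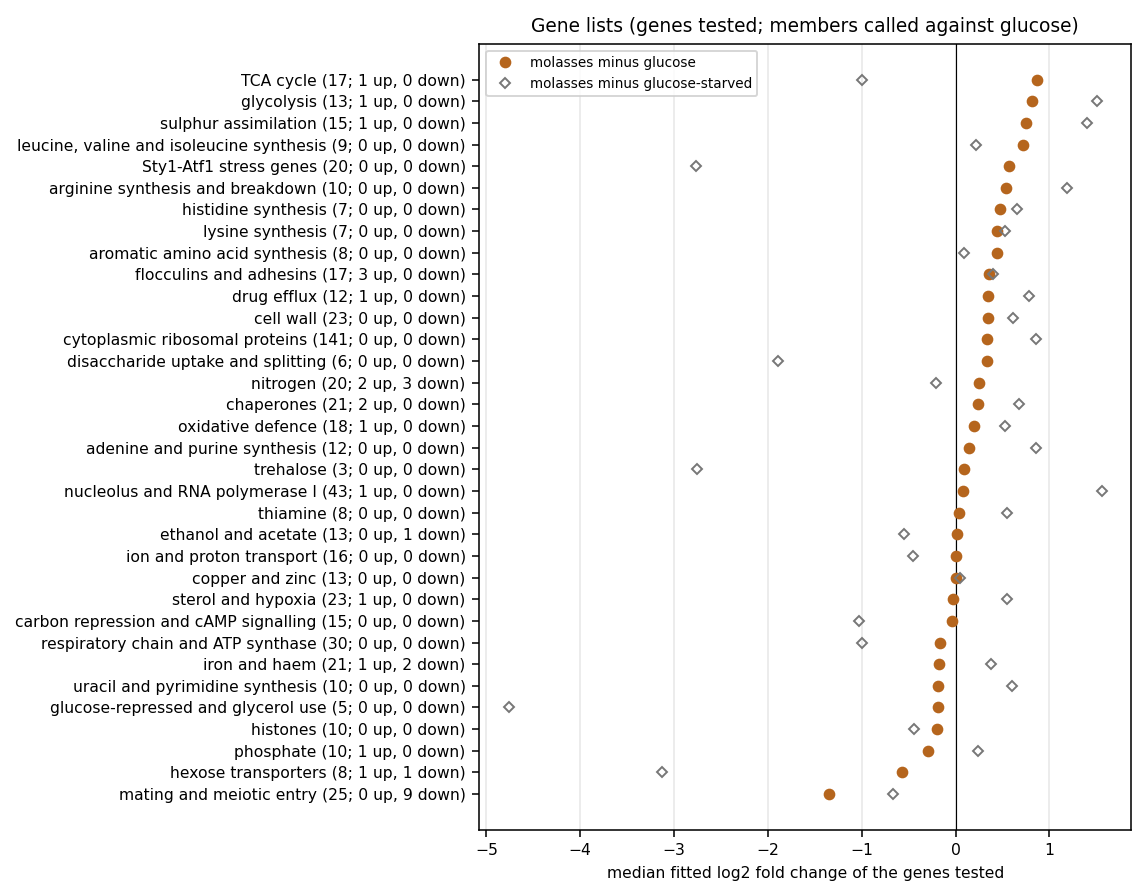
Median fitted log2 fold change of the genes tested in each of 34 gene lists, for molasses minus glucose (filled circles) and molasses minus glucose-starved medium (open diamonds). Each label gives the genes tested and the members called up and down against glucose. Mating and meiotic entry has the lowest median against glucose, at -1.35, and the TCA cycle the highest, at 0.87, and both comparisons share the molasses libraries.

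Set beside glucose-starved medium, molasses looked different from list to list. Glucose-repressed and glycerol genes had a median log2 fold change of -0.19 against glucose and -4.76 against starved medium, with 0 and 4 of 5 lower. Hexose transporters had medians of -0.57 and -3.13, with 1 and 6 of 8 lower. Nucleolar and RNA polymerase I genes had medians of 0.08 and 1.55, with 1 and 32 of 43 higher. Of 25 mating genes 9 were lower and none higher against glucose. Against starved medium 8 were lower and 2, *ste6* and *sxa2*, higher, beside 16.7% and 16.9% of all coding genes. In starved medium *ste11* had 22.6 and 19.8 CPM and *byr1* 30.6 and 35.7 CPM. Both comparisons use the same molasses libraries and are not independent.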

How the data were processed

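The deposited values are raw counts per gene, which the authors obtained, per the labels and the study's methods, by trimming with cutadapt 1.9.1, aligning to ASM294v2 with TopHat2 2.1.1 and counting with featureCounts 1.5.2, with replicates kept apart. The 16 libraries (8 groups, 2 replicates) were fitted with edgeR 4.0.16 (R 4.3.3, quasi-likelihood, TMM, edgeR's expression filter, 6614 genes tested), with group means and a term for labelled strandedness (7 residual degrees of freedom). The 49 rRNA genes were removed first. CPM are scaled by TMM factors. Gene names and promoters came from RefSeq ASM294v3, which matched 6845 of 7019 genes, and coordinates of genes are those deposited. Named genes were the 15 highest and 15 lowest fold changes among called genes with non-overlapping groups and under 50% repeated sequence, plus members of 35 gene lists. Members and lists were chosen with earlier results of these data known. In simulated counts for this comparison (6398 genes, 200 changed) the fit recovered 91% of genes changed by 3 on the log2 scale and 48% of those changed by 1.5, with 6 false calls. Apart from the set changes, each simulated gene had the same mean in all groups, no strandedness effect and a spread set by expression level alone. The real libraries differ in these respects, so the simulated rates need not hold for them. DESeq2 1.42.0 (as an alternative), Python 3.11.15, pandas 2.3.3 and matplotlib 3.10.9 were used. Alternatives were other size factors, tests, filters, library sets, strandedness codes, a replicate block and each library left out.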

Additional observations from a re-analysis of the deposited data

How the results depend on the processing

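The counts of genes against glucose (41 higher, 24 lower) were 110 and 38 by DESeq2's Wald test, 109 and 39 when replicate 1 of Wilmar-A in glucose was coded as unstranded, and 0 and 2 with only the 4 libraries compared and no strandedness term. With 1 library left out they ranged from 5 to 30 higher and from 9 to 17 lower, where a lone library is assumed to vary like the other groups. The other alternatives (DESeq2 size factors, both filters, rRNA genes kept, no strandedness term, Wilmar-A libraries left out, no fold change threshold) stayed within 1.5 times. This holds for the totals and not for every gene. Without Wilmar-A 29 of the 41 and 22 of the 24 calls were kept, and with no strandedness term 35 and 21. Calls lost without Wilmar-A included *gln1*, *sdh2*, *fib1*, *pmd1* and *pcl1* (adjusted p from 0.058 to 0.11 in edgeR's test). All 65 genes were also called by DESeq2's Wald test, and no called gene changed direction under any alternative. The replicate block gave 31 higher and 22 lower. It is only a shared number, since deviations of glucose and molasses replicates correlated at r = 0.008 over genes. Against glucose-starved medium (859 higher, 849 lower) all alternatives stayed within 1.5 times, the replicate block giving 866 and 844. Among 60 genes not called that were followed singly, signs turned for 5, and the other uncalled genes were not checked. The gpm1 log2 fold change (-0.21) was 0.082 with no strandedness term and 0.095 with the 4 libraries only. With 1 library left out, the inv1 log2 fold change ranged from -1.11 to 2.66, the agl1 log2 fold change from -0.18 to 2.48 and the gld1 log2 fold change from -0.45 to 1.81, each lowest without glucose replicate 2. The fbp1 log2 fold change ranged from -1.79 to 1.26 (1.26 without glucose replicate 1, 0.19 without molasses replicate 2) and was 0.23 without Wilmar-A and 0.0019 with no strandedness term. The cause was not tested. The galactose list had too few genes left for a median with 10 counts required in every library or with the 4 libraries only. Genes near the floor of 3 counts are limited by depth.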

Other observations

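Over all 5073 coding genes 637 had an unadjusted p below 0.05. Gene lists not described above held no gene called by edgeR or by DESeq2 against glucose. They were purine synthesis (median log2 fold change 0.14, 0 of 12 genes with an unadjusted p below 0.05), pyrimidine synthesis (median log2 fold change -0.19, 3 of 10 genes with an unadjusted p below 0.05) and thiamine (median log2 fold change 0.03, 0 of 8 genes with an unadjusted p below 0.05). Histones (median log2 fold change -0.20, 1 of 10 genes with an unadjusted p below 0.05), ion and proton transport (median log2 fold change 0.00, 2 of 16 genes with an unadjusted p below 0.05) and trehalose (median log2 fold change 0.09, 0 of 3 genes with an unadjusted p below 0.05) were likewise without calls. Genes of carbon repression and cAMP signalling had a median of -0.04 against glucose, with 3 of 15 at an unadjusted p below 0.05, and of -1.03 against starved medium. The 3 genes of the galactose cluster were at or under 3 counts in all 4 libraries.

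The remaining called genes, all chosen after their values were seen, were *plb2*, a phospholipase, *dfr1*, which encodes dihydrofolate reductase, *msi2*, a subunit of the cleavage factor complex, the transporter *SPBC16A3.17c* and the uncharacterized *SPAC977.18*, which rose, and *fsh2*, a serine hydrolase, and *SPAC25G10.01*, of mRNA splicing or surveillance, which fell. *plb2* had 716 and 531 CPM in glucose and 1736 and 2012 CPM on molasses (log2 fold change 1.57 ± 0.30 SE, adjusted p = 0.033). *dfr1* had 122 and 134 CPM in glucose and 289 and 375 CPM on molasses (log2 fold change 1.33 ± 0.20 SE, adjusted p = 0.011). Of these genes *SPAC977.18* has 84.2% of its sequence repeated elsewhere in the genome.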
